A study of Mus musculus with 24 samples.

Results

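Blood cells and the lining of blood vessels carry miRNAs of their own, and 10 of these were followed here through small RNA libraries of mouse male germ cells as a measure of RNA from cells other than germ cells. They were chosen by name from the 1978 mature miRNAs of the deposited count table, with earlier results of these data known. For red cells these were mmu-miR-451a, mmu-miR-144-3p and mmu-miR-486a-5p, and for endothelium the 2 arms of the miR-126a hairpin, mmu-miR-126a-3p and mmu-miR-126a-5p. For leukocytes they were mmu-miR-223-3p, mmu-miR-142a-3p, mmu-miR-142a-5p, mmu-miR-150-5p and mmu-miR-155-5p.

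The 24 libraries were made from enriched pachytene/diplotene spermatocytes and from enriched round spermatids of 3 genotypes, with 4 libraries in each of the 6 groups. Ago413-/- males lack all of Ago1 and parts of Ago3 and Ago4, 3 neighbouring genes for Argonaute proteins, on both copies of their chromosome, Ago413+/- males carry the deletion on a single copy, and Ago413+/+ males carry none. The deletion is constitutive, so blood cells and endothelium carry it too, and Ago2 is intact in every group. All males were 10 to 15 weeks old on the C57BL/6J background. Each cell suspension came from the testes of 2 to 5 mice, digested with collagenase and trypsin and spread on a gravity gradient of bovine serum albumin. Fractions above 70% of the wanted germ cell by microscopy and SYCP3 staining were pooled, so that other testis cells could remain. The authors give a higher range of purity for round spermatids than for spermatocytes. The small RNA counts hold no measure of the deleted genes, so the genotype labels could not be checked here, and since the labels do not say whether each library is a separate pool of mice, p-values measure the spread between these libraries.

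Red blood cells have no nucleus but keep a store of miRNAs, among which miR-451a is very abundant. miR-451a is an unusual miRNA whose hairpin is cut by AGO2 in place of Dicer, and it is transcribed with miR-144 in erythroid precursors, where it protects the cells from oxidative damage. miR-126a lies within Egfl7 and is characteristic of endothelial cells, where it sustains signalling from vascular growth factor. miR-142 is made throughout the blood lineages, miR-223 in neutrophils and other myeloid cells, miR-150 in mature lymphocytes and miR-155 in activated lymphocytes and macrophages. In the testis, vessels and macrophages lie mostly between the seminiferous tubules, outside the epithelium in which germ cells develop.

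Mature sequences of 7 of the 10 miRNAs were found in RefSeq (GRCm38.p6). They are shown because the counts are given for mature miRNAs such as these, and the capitals mark the seed, bases 2 to 8 from the 5′ end, which pairs with target mRNAs.
mmu-miR-451a: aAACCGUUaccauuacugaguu
mmu-miR-144-3p: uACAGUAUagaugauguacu
mmu-miR-126a-3p: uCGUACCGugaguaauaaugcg
mmu-miR-223-3p: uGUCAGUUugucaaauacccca
mmu-miR-142a-3p: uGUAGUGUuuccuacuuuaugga
mmu-miR-142a-5p: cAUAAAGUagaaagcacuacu
mmu-miR-155-5p: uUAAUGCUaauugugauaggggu
The 7 seeds were all distinct, so none of these miRNAs stands for a shared seed family with another. The 2 arms of Mir142, miR-142a-5p and miR-142a-3p, also differ in their seeds although they come from the same hairpin.

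The hairpins lie on 6 chromosomes (GRCm38.p6, GENCODE M21). Mir144 (chr11:78073005-78073070) and Mir451a (chr11:78073170-78073241) are on the same strand with 99 bases between them. Mir486 (chr8:23142555-23142682) is in an intron of Ank1, a red cell membrane protein gene, and the hairpin Mir3107 lies over it on the other strand. Mir126a (chr2:26591357-26591429) overlaps an annotated exon of Egfl7. Mir223 (chrX:96242817-96242926) overlaps an exon of the noncoding gene F630028O10Rik, Mir142 (chr11:87756864-87756927) lies in an intron of Mir142hg, Mir155 (chr16:84714140-84714204) overlaps an exon of Mir155hg, and Mir150 is at chr7:45121757-45121821. Mir451a, Mir126a and Mir142 also face an antisense hairpin, and the antisense products miR-451b and miR-126b-5p had 0 counts in all 24 libraries, while miR-126b-3p and miR-142b had 1 count each over all libraries.

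Of the 10 miRNAs, 9 reached 10 counts in at least 3 of the 24 libraries, as did 450 of all 1978. miR-126a-3p, miR-142a-5p and miR-155-5p reached 10 counts in all 24 libraries, miR-451a in 23, miR-142a-3p in 21, miR-486a-5p in 20, miR-126a-5p in 13, miR-150-5p in 9 and miR-223-3p in 4. miR-144-3p reached it in 0 libraries. It had 25 counts in all, at most 5 in a library, and was at 0 in 12 libraries, against 7881 counts of its neighbour miR-451a. Library totals ran from 182904 to 1072637 counts, and a miRNA with 0 counts in a library may have up to 3 counts, which is 2.742 to 19.998 CPM (counts per 1000000 counts of the library, scaled by edgeR's TMM factors over all 24 libraries). Mature miRNAs are of similar length, so their levels are set side by side as counts or CPM, in which any bias of adapter ligation between sequences remains. This limit of detection and all intervals below cover counting error only, because PCR copies could not be told from separate molecules.

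Summed over the 10 miRNAs, these markers made up 0.0743% to 0.822% of the counts of a library, with a median of 0.197%. For comparison, 6 miRNAs typical of meiotic and postmeiotic germ cells (miR-881-3p, miR-871-3p, miR-741-3p, miR-449a-5p, miR-34c-5p and miR-34b-5p) took 16.1% to 34.1%, and 6 miRNAs of mesenchymal cells such as peritubular and smooth muscle cells (miR-143-3p, miR-145a-5p, miR-145a-3p, miR-199a-3p, miR-199a-5p and miR-214-3p) took 0.204% to 1.18%. The lowest sum of the germ cell miRNAs was above the highest sum of the 10 markers. Red cell miRNAs ranged most widely, from 0.00223% to 0.534%, endothelial miRNAs ranged from 0.0213% to 0.540%, and leukocyte miRNAs stayed within 0.0227% to 0.0795%. By group, the sum of all 10 was 0.277% ± 0.187 (SD, n = 4) in spermatocytes of Ago413+/+, 0.138% ± 0.00509 in Ago413+/- and 0.270% ± 0.158 in Ago413-/-. In round spermatids it was 0.178% ± 0.0719, 0.208% ± 0.0682 and 0.551% ± 0.224 in the same order. In bulk RNA of this kind, more cells of a type and more RNA per cell cannot be told apart.

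**Figure D1:**
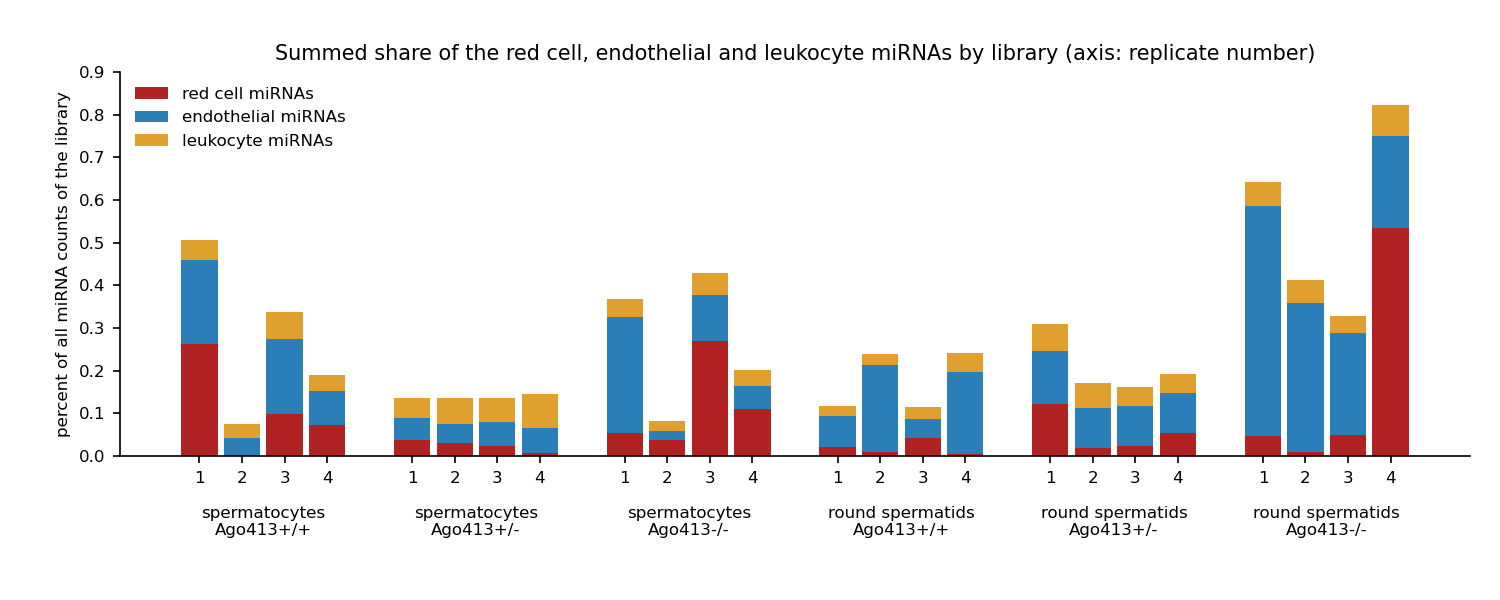
Stacked bars give the percent of all miRNA counts of each library taken by the red cell, endothelial and leukocyte miRNAs (vertical axis), with replicates 1 to 4 of the 6 groups along the horizontal axis. The red cell part is large in single libraries of several groups, most of all in replicate 4 of Ago413-/- round spermatids, while the endothelial part of that group is 0.217% to 0.540%, against 0.0440% to 0.203% in Ago413+/+ round spermatids.

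Replicate 4 of Ago413-/- round spermatids stood apart from its group in both measured red cell miRNAs. miR-451a was at 446 CPM in replicate 1, 80.8 in replicate 2, 555 in replicate 3 and 4364 in replicate 4 of that group, and miR-486a-5p at 61.6, 22.3, 56.8 and 440 CPM. The mean level of miR-451a and the fold changes of both against the other genotypes are therefore given with and without that library.

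miR-451a, the leading miRNA of red cells, varied widely between libraries of the same group. In spermatocytes it was at 2230.4, 10.97, 730.1 and 629 CPM in replicates 1 to 4 of Ago413+/+, at 317, 219, 188 and 31.1 CPM in Ago413+/-, and at 456, 407, 2647 and 1136 CPM in Ago413-/-. In round spermatids it was at 155, 58.5, 440.3 and 30.0 CPM in Ago413+/+ and at 1084, 140.5, 189.9 and 445 CPM in Ago413+/-. The group means ordered Ago413-/- round spermatids first (1362 ± 2012 CPM), then Ago413-/- spermatocytes (1161 ± 1045), Ago413+/+ spermatocytes (900.1 ± 942), Ago413+/- round spermatids (465 ± 434), Ago413+/- spermatocytes (189 ± 119) and Ago413+/+ round spermatids (171 ± 187). Each group overlapped the next in this order, and the first place came from replicate 4. Without it the mean of Ago413-/- round spermatids was 361 ± 249 CPM (SD, n = 3), below those of Ago413+/- round spermatids and of both other groups named first. By medians Ago413-/- spermatocytes were highest (796 CPM), then Ago413+/+ spermatocytes (679.5 CPM) and Ago413-/- round spermatids (501 CPM).

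miR-486a-5p, a red cell and muscle miRNA, was high in many of the same libraries at a lower level. In Ago413+/+ spermatocytes it was at 173, 10.97, 95.9 and 88.9 CPM in replicates 1 to 4, so that its highest and lowest libraries were those of miR-451a. In Ago413+/- spermatocytes the order differed, with miR-486a-5p at 29.7, 28.4, 21.2 and 40.4 CPM, so that replicate 4, the lowest library of that group for miR-451a, was its highest. In round spermatids of Ago413+/+ it was at 34.6, 43.0, 54.2 and 19.2 CPM. The number of miR-451a counts per miR-486a-5p count ran from 0.769 to 15.3 with a median of 7.62. The count of miR-486a-5p cannot be separated from that of miR-486b-5p on the facing hairpin, since their totals were 896 and 960 counts and the largest difference in a library was 18 counts. miR-144-3p, which is cut from the same transcript as miR-451a, had 1, 0, 2 and 0 counts in Ago413+/+ round spermatids and 2, 0, 0 and 4 counts in Ago413-/- round spermatids, and its other arm miR-144-5p had 23 counts over all libraries.

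The endothelial miR-126a-3p was the most abundant of the 10 in total counts, 19285 over the 24 libraries. In round spermatids it was at 676, 1939, 511 and 1854 CPM in replicates 1 to 4 of Ago413+/+, at 1122, 878, 881 and 832 CPM in Ago413+/- and at 5690.3, 3787, 2884 and 1889 CPM in Ago413-/-. All 4 Ago413-/- libraries were above all 4 Ago413+/- libraries, a comparison in which 23.2% of all 426 miRNAs tested had no overlap. The lowest Ago413-/- library of miR-126a-3p, replicate 4, was below its highest Ago413+/+ library. In spermatocytes it was at 1762, 389, 1433 and 775 CPM in Ago413+/+, at 442, 365, 513 and 706 CPM in Ago413+/- and at 2557, 260.0, 1116 and 626 CPM in Ago413-/-, with overlap between every pair of genotypes. The 3 highest libraries of all 24 were replicates 1, 2 and 3 of Ago413-/- round spermatids.

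miR-126a-5p, the less abundant arm of the same hairpin, followed at a lower level. Its counts in round spermatids were 10, 56, 0 and 40 in Ago413+/+, 23, 20, 9 and 18 in Ago413+/- and 101, 24, 32 and 29 in Ago413-/-. Over both arms its share of counts ran from 0% to 3.67% by library. The mean share was 2.00% ± 1.35 in Ago413+/+, 3.12% ± 0.482 in Ago413+/- and 2.31% ± 0.866 in Ago413-/- round spermatids (SD, n = 4), so the share differed between genotypes by no more than its spread among libraries.

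Among the leukocyte miRNAs, miR-142a-5p was the most abundant, with 3437 counts over all libraries. In round spermatids it was at 89.6, 146, 199.9 and 276 CPM in Ago413+/+, at 389, 281, 299 and 258 CPM in Ago413+/- and at 346, 379, 285 and 457 CPM in Ago413-/-, where the lowest Ago413-/- library was just above the highest Ago413+/+ library. miR-142a-3p, its partner arm, was at 44.8, 24.7, 37.3 and 43.2 CPM in Ago413+/+ round spermatids, at 84.1, 212, 35.5 and 77.5 CPM in Ago413+/- and at 94.9, 80.8, 68.5 and 43.1 CPM in Ago413-/-. The 2 arms did not keep a fixed ratio. The miR-142a-3p share of both arms ranged from 4.81% in replicate 4 of Ago413+/- spermatocytes (9 of 187 counts, 95% Wilson interval 2.55% to 8.89%) to 43.1% in replicate 2 of Ago413+/- round spermatids (127 of 295 counts, 37.5% to 48.8%), although in Ago413+/+ spermatocytes it was 19.97% ± 1.75 (SD, n = 4).

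miR-223-3p, the neutrophil miRNA, was close to the limit of detection. In round spermatids it had 0, 7, 0 and 2 counts in Ago413+/+, 9, 5, 5 and 10 counts in Ago413+/- and 5, 7, 13 and 15 counts in Ago413-/-. It reached 10 counts in exactly 3 round spermatid libraries, none of them Ago413+/+, so it entered the test through the groups in which it was high. In spermatocytes replicate 3 of Ago413+/+ held 28 counts and every other library 0 to 2, so that miR-223-3p was not tested there.

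miR-150-5p, a lymphocyte miRNA, was at 16.3, 42.0, 10.2 and 30.0 CPM in Ago413+/+ round spermatids, at 11.5, 3.35, 7.60 and 14.3 CPM in Ago413+/- and at 69.9, 22.3, 43.9 and 51.8 CPM in Ago413-/-. The Ago413-/- libraries overlapped the Ago413+/+ libraries. They were all above the Ago413+/- libraries, a comparison in which 23.2% of all 426 miRNAs tested had no overlap. The highest miR-150-5p value of the series, 196 CPM (63 counts), was in replicate 4 of Ago413+/- spermatocytes, where the other 3 libraries were at 2.97 to 21.2 CPM. miR-155-5p, the miRNA of activated lymphocytes and macrophages, was the steadiest of the 10, at 41.1 to 89.1 CPM in round spermatids of all genotypes and at 64.8 to 187 CPM in spermatocytes. In spermatocytes its mean was 75.3 ± 8.69 CPM in Ago413+/+, 105 ± 39.6 in Ago413+/- and 146 ± 33.0 in Ago413-/- (SD, n = 4), and the lowest Ago413-/- library, at 105.9 CPM, was above the highest Ago413+/+ library, at 82.6 CPM. Of all 404 miRNAs tested in spermatocytes, 19.8% had no overlap between Ago413-/- and Ago413+/+.

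**Figure D2:**
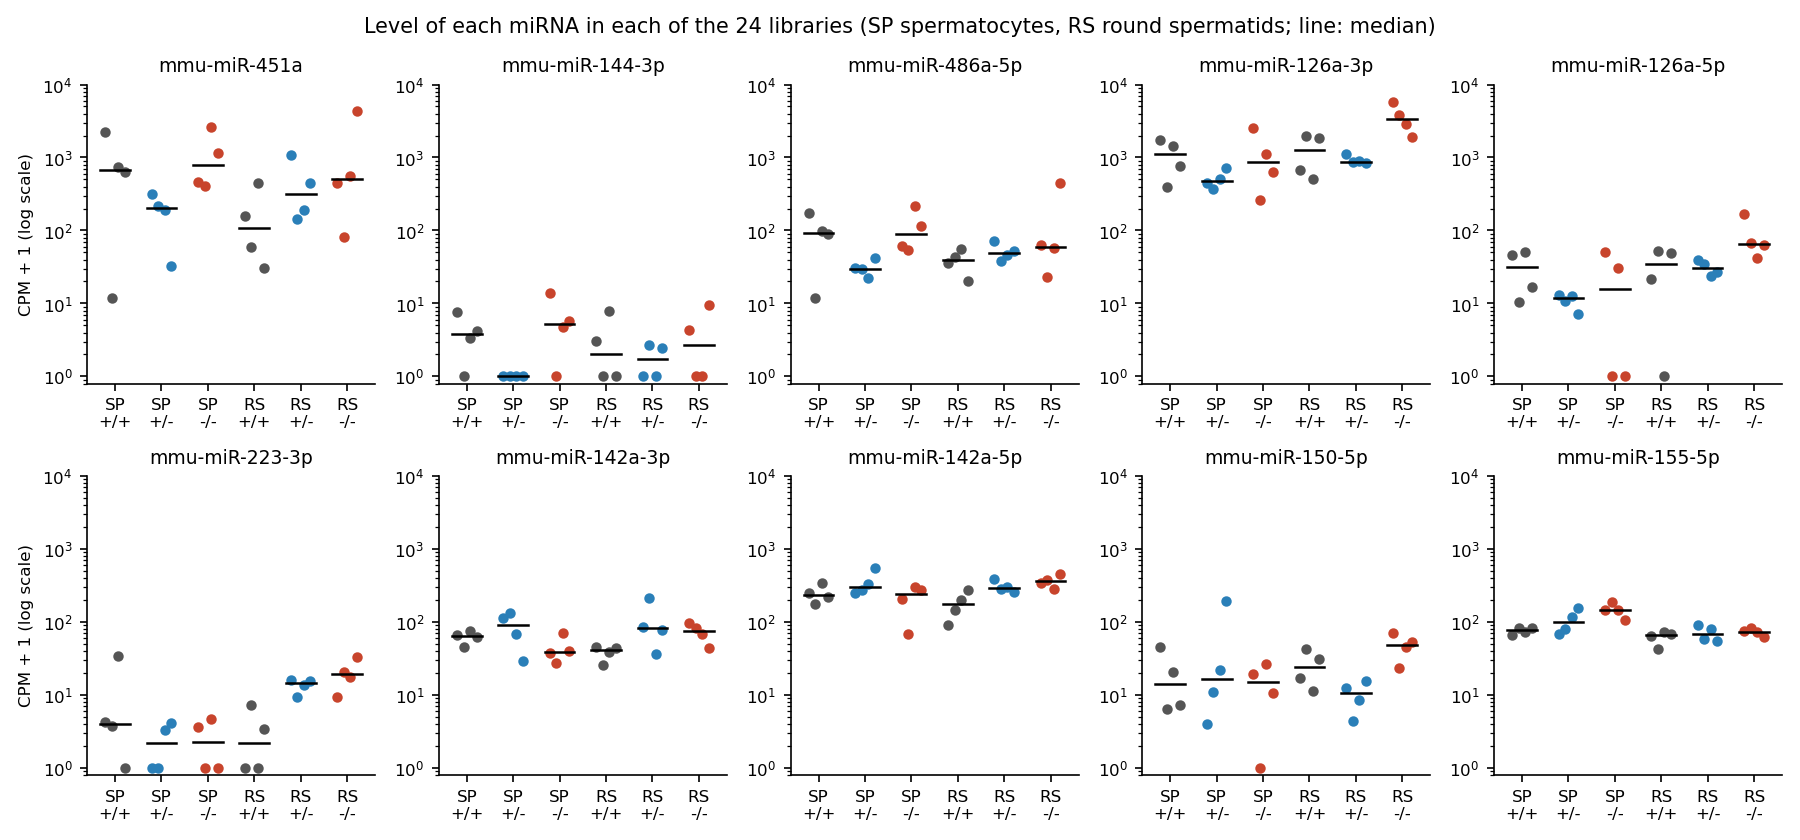
Each panel gives one miRNA, with CPM plus 1 on a log scale (vertical axis) against the 6 groups (SP, spermatocytes; RS, round spermatids), a point for each library in replicate order and a line at the group median. Points of miR-451a and miR-486a-5p spread widely within groups, miR-126a-3p sits highest in Ago413-/- round spermatids (1889 to 5690.3 CPM), and miR-144-3p and miR-223-3p lie near 0 in many libraries.

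The first question of the design was whether the triple deletion changed miRNA levels within a cell type. In round spermatids of Ago413-/- against Ago413+/+, 5 of the 9 marker miRNAs tested rose and 0 fell: miR-451a and miR-486a-5p of red cells, miR-126a-3p of endothelium, and miR-223-3p and miR-142a-5p of leukocytes. A miRNA was called changed with an adjusted p under 0.05 (edgeR quasi-likelihood test, Benjamini-Hochberg over all miRNAs tested in the cell type) and a log2 fold change of at least 1 in size. The background was 16.2% of all 426 miRNAs called in either direction and 7.51% called higher. All 9 fold changes were above 0, with a median of 1.48 on the log2 scale, while over all miRNAs tested the median was 0.13 and 57.7% were above 0. Without miR-223-3p, which passed the filter through the groups where it was high, the count was 4 of 8. The markers were chosen with earlier results of these data known, so these counts beside the background are a description. By values alone, 2 of the 9, miR-223-3p and miR-142a-5p, had no overlap between the libraries of both genotypes, against 23.7% of all miRNAs tested, so that share was not above the background.

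Of the miRNAs that rose, mmu-miR-451a had the largest fold change, 3.26 ± 1.02 on the log2 scale (SE, adjusted p = 0.0299, edgeR), followed by mmu-miR-223-3p at 2.65 ± 0.64 (0.00997), mmu-miR-486a-5p at 2.11 ± 0.67 (0.0305), mmu-miR-126a-3p at 1.63 ± 0.42 (0.0120) and mmu-miR-142a-5p at 1.18 ± 0.31 (0.0122). The 4 that did not pass were mmu-miR-126a-5p at 1.48 ± 0.57 (adjusted p = 0.0697, edgeR), mmu-miR-142a-3p at 1.09 ± 0.44 (0.0799), mmu-miR-150-5p at 0.96 ± 0.45 (0.133) and mmu-miR-155-5p at 0.40 ± 0.28 (0.304). DESeq2 called 6 of the 9, the same 5 and miR-126a-5p. Scaling by library totals moved the median of all miRNAs from 0.13 to -0.09 and the called miRNAs from 32 higher of 69 to 16 higher of 68, and under it 4 of the 9 markers were called, all higher, with mmu-miR-486a-5p at 2.05 (adjusted p = 0.0526, edgeR).

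**Figure D3:**
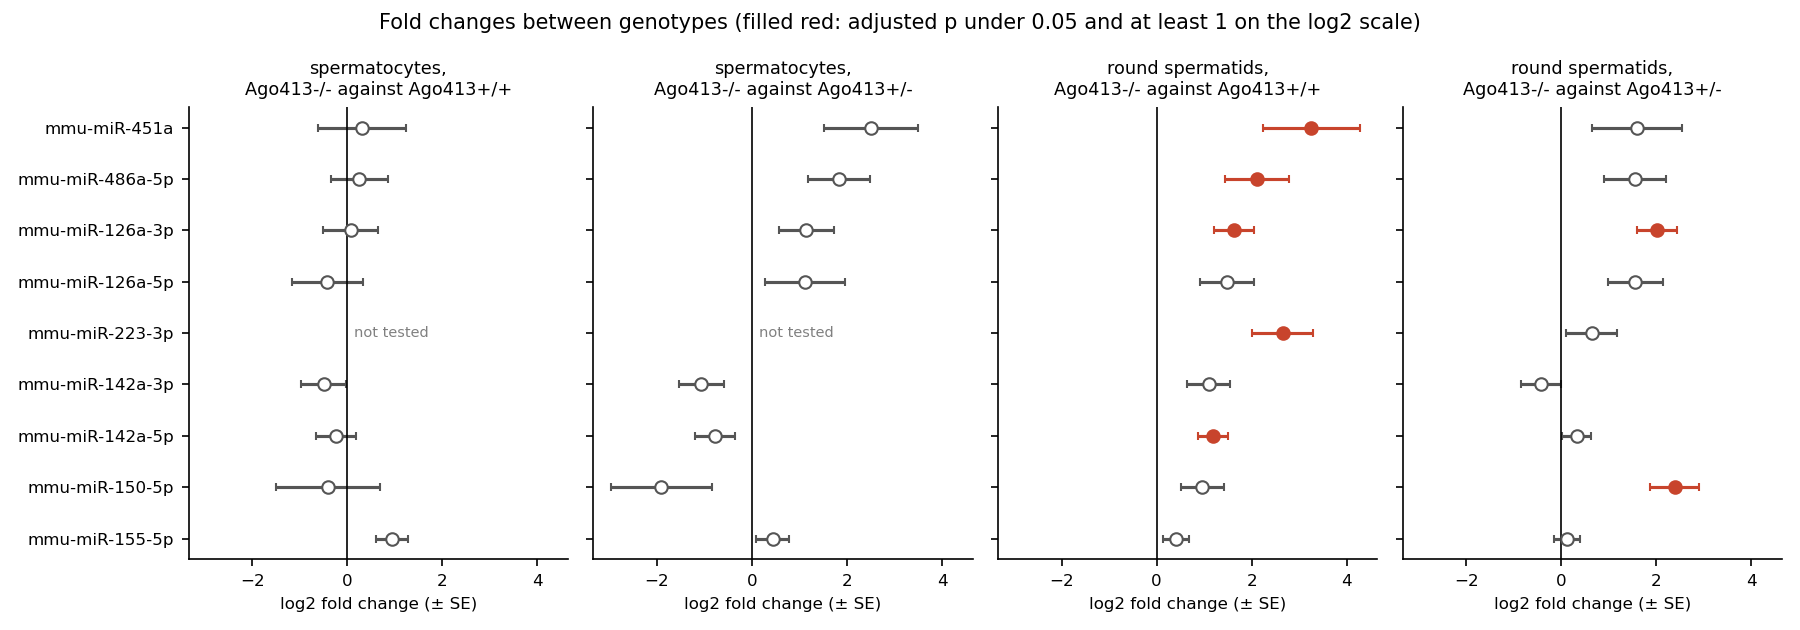
Points give the log2 fold change of each marker miRNA with its standard error (horizontal axis) in 4 comparisons of genotypes, with filled red points for those called. In round spermatids 5 markers were called against Ago413+/+ and 2 against Ago413+/-, and in spermatocytes 0 were called.

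The red cell calls depended on single libraries. Without replicate 4 of Ago413-/- round spermatids, mmu-miR-451a was at 1.33 ± 0.83 on the log2 scale (adjusted p = 0.280, edgeR) and mmu-miR-486a-5p at 0.52 ± 0.43 (0.401), and 2 markers were left as called, mmu-miR-126a-3p at 1.82 ± 0.42 (adjusted p = 0.00918, edgeR) and mmu-miR-142a-5p at 1.03 ± 0.32 (0.0368). In that fit mmu-miR-223-3p reached 10 counts in too few libraries to be tested. The call of mmu-miR-451a was also lost without replicate 1, 2 or 4 of Ago413+/+ (fold changes of 3.01, 2.74 and 2.73), and mmu-miR-486a-5p was lost without the same libraries (1.86, 2.05 and 1.73). mmu-miR-126a-3p lost its call without replicate 1 of Ago413+/+ (1.19, adjusted p = 0.0721, edgeR) or replicate 1 of Ago413-/- (1.21, 0.0658), and mmu-miR-142a-5p lost it without replicate 1 or 2 of Ago413+/+ (0.74 and 0.91). mmu-miR-223-3p was not tested without replicate 3 or 4 of Ago413-/- and was between 2.12 and 3.70 in the other 6 fits, which are no measure of its stability, since it was tested only where its high libraries were kept. With a term for library numbers above 60, the numbers in the labels' library names, mmu-miR-451a was at 2.78 (adjusted p = 0.0544, edgeR) and mmu-miR-486a-5p at 1.79 (0.0687), and the other 3 were called.

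**Figure D4:**
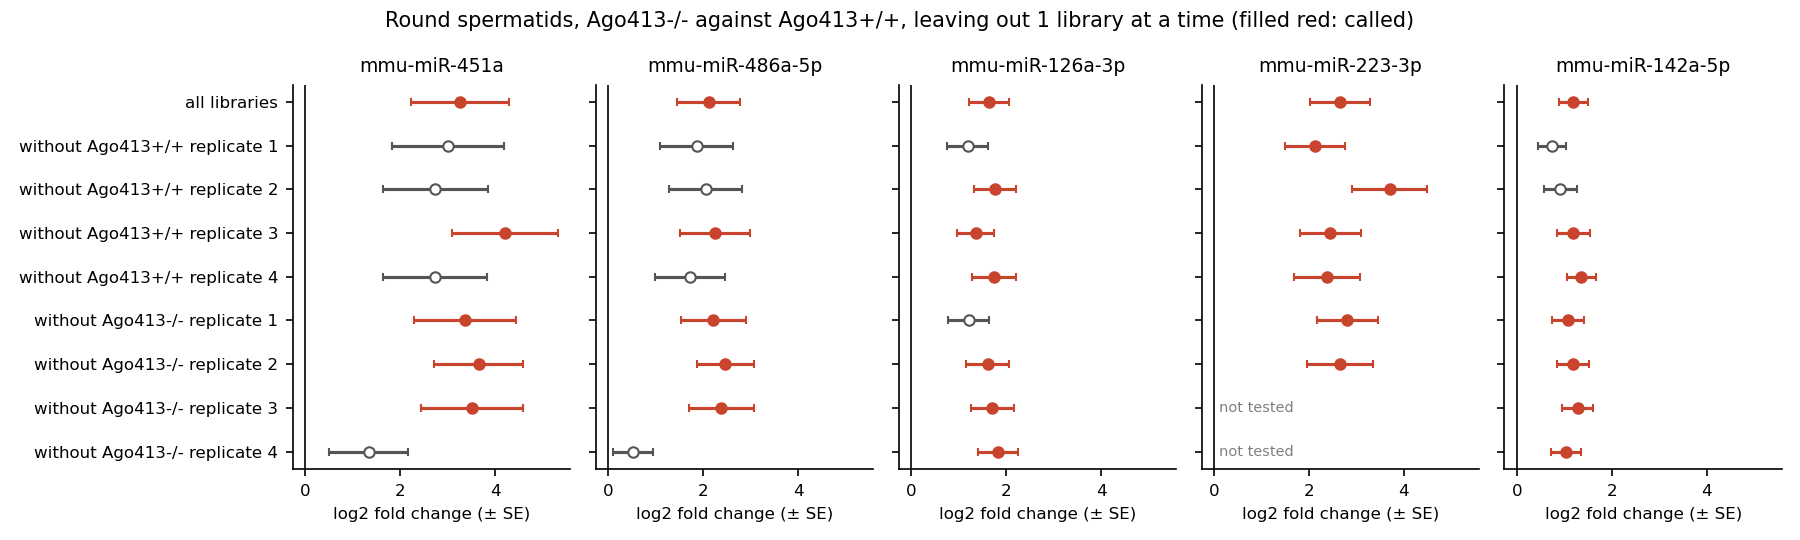
Log2 fold changes with standard errors (horizontal axis) of the 5 called markers in Ago413-/- against Ago413+/+ round spermatids, with all libraries and with each library left out in turn (rows), and filled red points where called. The red cell miRNAs fall most without replicate 4 of Ago413-/-, to 1.33 and 0.52, and every point is above 0.

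Other gene groups gave a measure of what moved beside these markers in Ago413-/- against Ago413+/+ round spermatids. Their lists, too, were chosen with earlier results of these data known. Of the 2 further leukocyte miRNAs, mmu-miR-146a-5p, a brake on inflammatory signalling, rose by 2.57 (adjusted p = 0.000192, edgeR) and mmu-miR-342-3p was at 0.06. Of the 6 mesenchymal miRNAs, 1 was called, mmu-miR-199a-3p at 1.14 (adjusted p = 0.00997, edgeR), and their median was 0.09. Of the 6 germ cell miRNAs 0 were called, with a median of 0.20, although mmu-miR-449a-5p (0.98), mmu-miR-881-3p (0.81) and mmu-miR-871-3p (-0.91) had adjusted p of 0.0110, 0.0299 and 0.0130 (edgeR) at fold changes under the threshold of 1. The summed share of the mesenchymal miRNAs was 0.573% ± 0.425 in Ago413+/+ (0.242% to 1.18%) and 0.676% ± 0.0775 in Ago413-/- (0.593% to 0.745%), and that of the germ cell miRNAs was 23.4% ± 1.89 and 24.6% ± 3.54. The part of blood or vessel cells in the changes of other miRNAs was not tested.

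Against Ago413+/- round spermatids, a second group of libraries but with the same Ago413-/- libraries as above, 2 of the 9 markers were called, both higher, where 12.4% of the 426 miRNAs were called and 5.16% were called higher. These were mmu-miR-126a-3p at 2.01 ± 0.43 on the log2 scale (adjusted p = 0.00567, edgeR) and mmu-miR-150-5p at 2.39 ± 0.51 (0.00567). Both kept their calls whichever of the 8 libraries of these genotypes was left out, and DESeq2 called both and mmu-miR-126a-5p. The mmu-miR-150-5p call rests on 7, 2, 3 and 10 counts in replicates 1 to 4 of Ago413+/-, near the limit of detection. Against Ago413+/+ it was not called, at 0.96 ± 0.45 (adjusted p = 0.133, edgeR). mmu-miR-126a-5p was at 1.56 ± 0.58 (adjusted p = 0.0712, edgeR), close to its partner arm. mmu-miR-451a was at 1.58 ± 0.95 (0.256) and mmu-miR-486a-5p at 1.55 ± 0.65 (0.108), and without replicate 4 of Ago413-/- they were at -0.29 and -0.026. mmu-miR-223-3p was at 0.64 ± 0.54 (0.427) and mmu-miR-142a-5p at 0.32 ± 0.30 (0.487), so these leukocyte miRNAs were called against Ago413+/+ and not against Ago413+/-. Scaling by library totals gave the same 2 markers, while over all miRNAs the calls went from 22 higher of 53 to 3 higher of 57.

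Ago413+/- round spermatids against Ago413+/+, which share those Ago413+/+ libraries, gave 0 of 9 markers called and 0% of all 426 miRNAs (edgeR). DESeq2 also called 0 of the 9. Of all 426 miRNAs 68 had an unadjusted p under 0.05 (edgeR), and of the 9 markers 4. These 4 were mmu-miR-142a-3p at 1.53 ± 0.44 on the log2 scale (adjusted p = 0.159, edgeR), mmu-miR-223-3p at 2.01 ± 0.66 (0.192), mmu-miR-142a-5p at 0.86 ± 0.31 (0.217) and mmu-miR-150-5p at -1.42 ± 0.52 (0.231). The lowest miR-223-3p level in Ago413+/-, 8.36 CPM, was above the highest in Ago413+/+, 6.40 CPM, which rests on 5 and 7 counts. miR-223-3p passed the filter through the groups in which it was high, none of them Ago413+/+. The filter thus favoured both its rise and this gap, and neither is read as a result. Of all 426 miRNAs, 5.40% had no overlap between Ago413+/- and Ago413+/+ round spermatids.

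In spermatocytes none of the 8 markers tested was called in any comparison of genotypes by edgeR. For Ago413-/- against Ago413+/+ the background was 4.46% of 404 miRNAs, and DESeq2 also called 0 of the 8. An unadjusted p under 0.05 (edgeR) was found for 103 of the 404 miRNAs and for 1 of the 8 markers. This marker was mmu-miR-155-5p at 0.94 ± 0.35 on the log2 scale (adjusted p = 0.0991, edgeR). The other 7 lay between -0.50 and 0.31. For Ago413+/- against Ago413+/+ the background was 0%, and DESeq2 also called 0 of the 8. Of all 404 miRNAs 13 had an unadjusted p under 0.05 (edgeR). Among them were mmu-miR-451a at -2.19 ± 0.98 and mmu-miR-486a-5p at -1.58 ± 0.63 (adjusted p = 0.9998 for both, edgeR). Without replicate 1 of Ago413+/+, mmu-miR-451a was at -1.32. For Ago413-/- against Ago413+/- the background was 2.23%. There mmu-miR-486a-5p was at 1.83 ± 0.65 (adjusted p = 0.0991, edgeR), mmu-miR-451a at 2.51 ± 0.99 (0.131) and mmu-miR-142a-3p at -1.06 ± 0.48 (0.189), all 3 with an unadjusted p under 0.05. Of all 404 miRNAs 96 had an unadjusted p under 0.05 there (edgeR). DESeq2 called 1 marker in that comparison, miR-486a-5p, and without replicate 4 of Ago413+/- edgeR called mmu-miR-142a-3p (-1.35, adjusted p = 0.0465).

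Whether the genotype effect differed between the cell types was tested by the interaction in a fit of all 24 libraries. Of the 9 markers 0 were called by edgeR or DESeq2, and the background was 0% of 450 miRNAs, so a difference between round spermatids and spermatocytes was not shown. At an unadjusted p under 0.05 (edgeR) there were 55 of all 450 miRNAs and 3 of the 9 markers. These 3 were mmu-miR-223-3p with a difference of 4.94 ± 1.39 on the log2 scale (adjusted p = 0.225, edgeR), mmu-miR-142a-5p with 1.25 ± 0.53 (0.381) and mmu-miR-142a-3p with 1.41 ± 0.67 (0.394). The difference of mmu-miR-223-3p was 2.96 without replicate 3 of Ago413+/+ spermatocytes, which held 28 of its counts, and 2.96 to 6.27 over all fits that left out a replicate. Besides that library it reached 10 counts only in Ago413-/- round spermatids (13 and 15) and Ago413+/- round spermatids (10). High counts in Ago413+/+ spermatocytes or Ago413-/- round spermatids raise this difference, so the filter favoured a value above 0. 8 of the 9 differences were above 0, where 50.2% of all 450 miRNAs were, the exception being mmu-miR-155-5p at -0.69 ± 0.41. The 9 are not independent, since some are arms of the same hairpin.

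Round spermatids were also compared with spermatocytes of the same genotype. In Ago413+/+ and in Ago413+/-, 0 of the 9 markers were called, with a background of 0% of 450 miRNAs in both comparisons, and DESeq2 called 0 in both. An unadjusted p under 0.05 (edgeR) was found for 10 of all 450 miRNAs in Ago413+/+ and 15 in Ago413+/-, and for 2 markers in each. On the log2 scale these markers were mmu-miR-451a at -2.44 and mmu-miR-223-3p at -1.81 in Ago413+/+, and mmu-miR-150-5p at -2.52 and mmu-miR-223-3p at 3.21 in Ago413+/-. The value of mmu-miR-150-5p rested on replicate 4 of Ago413+/- spermatocytes and was -0.31 without it, that of mmu-miR-223-3p in Ago413+/+ rested on replicate 3 of Ago413+/+ spermatocytes and was 0.29 without it, and that of mmu-miR-451a was -1.45 without replicate 1 of Ago413+/+ spermatocytes. As for the interaction, mmu-miR-223-3p passed the filter of this fit through the groups in which it was high. In Ago413-/- the background was 4.89% and 1 of the 9 was called, mmu-miR-155-5p, which was lower in round spermatids by -1.02 ± 0.29 (adjusted p = 0.0427, edgeR). Leaving out each of the 8 libraries in turn, that call was lost 7 times, and the fold change lay between -1.07 and -0.74. It was kept without replicate 1 of Ago413-/- spermatocytes, and in that fit mmu-miR-126a-3p and mmu-miR-126a-5p were also called, at 2.41 and 2.81 against 1.64 ± 0.54 (adjusted p = 0.0733, edgeR) and 1.86 ± 0.73 (0.101) with all libraries.

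Over the 24 libraries some of the markers were high in the same libraries. Likeness is given by Spearman correlations of log2(CPM + 1) over libraries that share scaling and depth, as a description. Among 449 other miRNAs, the 5 most like miR-451a were miR-486a-5p (rho 0.92), miR-122-5p and miR-486b-5p (0.92 each), miR-215-5p (0.59) and miR-24-3p (0.59). With each group's mean removed the values were 0.81, 0.88, 0.81, 0.40 and 0.37, so the first 3 held within groups and the next were weaker. Of these, miR-486a-5p and miR-486b-5p count as a single signal, since their counts cannot be separated. miR-126a-3p was at 0.22 with miR-451a, and the leukocyte miRNAs miR-223-3p, miR-142a-5p, miR-142a-3p, miR-150-5p and miR-155-5p were at 0.19, 0.19, 0.14, 0.14 and 0.09.

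mmu-miR-122-5p is the dominant miRNA of hepatocytes and is carried in blood plasma, and it is not one of the 10 markers. It was at 1321, 17.8, 116 and 289 CPM in replicates 1 to 4 of Ago413+/+ spermatocytes, where replicates 1 and 2 were also the highest and the lowest for miR-451a. In Ago413-/- spermatocytes the extremes differed. There miR-122-5p was at 59.9, 313, 1238 and 1743 CPM, while miR-451a was lowest in replicate 2 and highest in replicate 3. In Ago413-/- round spermatids miR-122-5p was at 89.9, 58.5, 319 and 2014 CPM, highest in replicate 4 as miR-451a was. Its fold change there against Ago413+/+ was 3.71 ± 1.18 on the log2 scale (adjusted p = 0.0306, edgeR). That value includes replicate 4, and none without it is given.

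The miRNAs most like miR-126a-3p were its partner arm miR-126a-5p (rho 0.93, and 0.78 with group means removed), miR-27a-3p (0.72 and 0.46), miR-223-3p (0.70 and 0.61), miR-150-5p (0.69 and 0.77) and miR-199a-3p (0.69 and 0.42). Of the 5 leukocyte markers, miR-223-3p, which was at 0 counts in 7 libraries, and miR-150-5p were among these. The others were at 0.42 (miR-142a-5p), 0.07 (miR-142a-3p) and -0.25 (miR-155-5p) with miR-126a-3p, so the leukocyte markers did not follow it as a set. The arms miR-142a-3p and miR-142a-5p had a rho of 0.35, and -0.02 with group means removed, although they come from the same hairpin. miR-155-5p ran against miR-126a-5p, with the lowest rho of any pair of markers, -0.40.

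**Figure D5:**
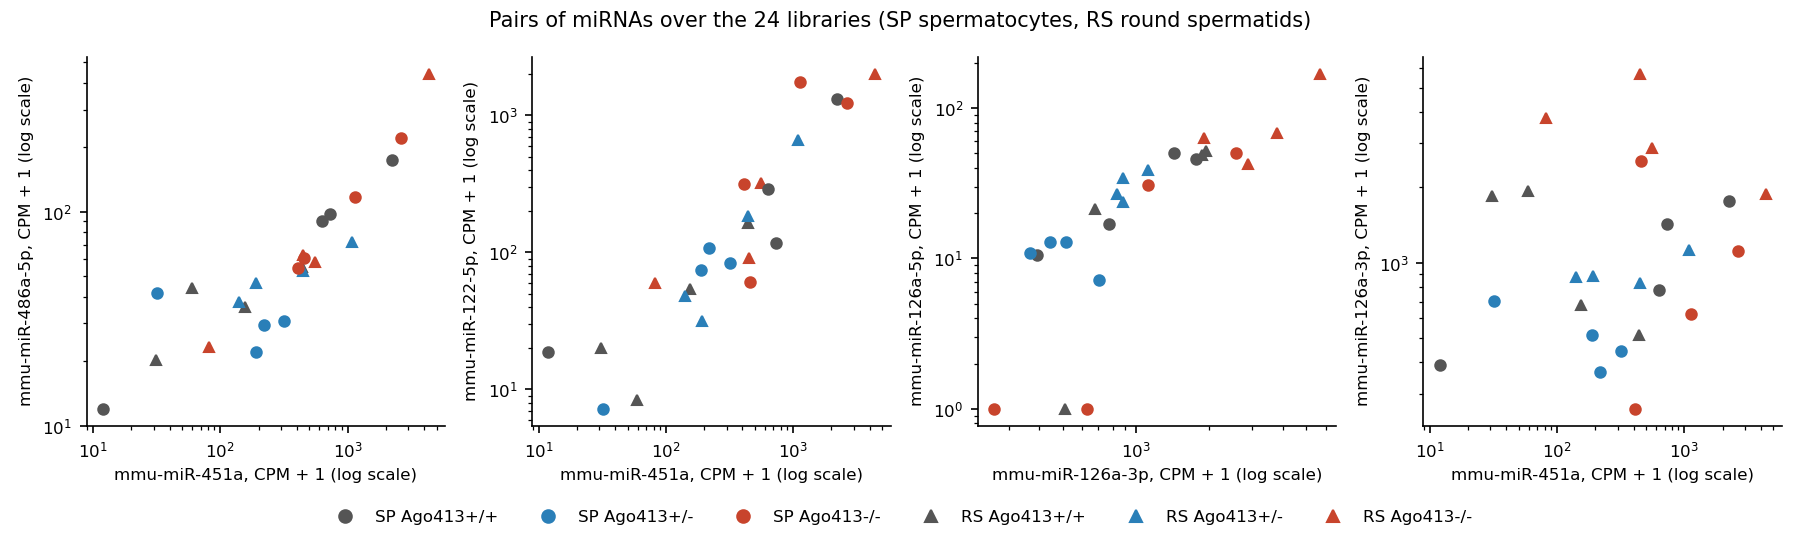
Each point is a library, placed by CPM plus 1 of one miRNA on each axis (log scales), with circles for spermatocytes, triangles for round spermatids and colours for genotypes. miR-486a-5p and miR-122-5p climb with miR-451a over the 24 libraries (rho 0.92 for both), miR-126a-5p climbs with miR-126a-3p (0.93), and miR-126a-3p shows little relation to miR-451a (0.22).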

How the data were processed

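The authors trimmed reads of NEBNext small RNA libraries (100 ng total RNA) with TrimGalore, dropped reads under 10 bases and counted the rest against mouse miRNAs of miRBase with miRDeep2's quantifier. The deposited values are raw counts of 1978 mature miRNAs in 24 libraries, all used here, and families were not summed. With no genome alignment in this step, miRNAs of near-identical sequence can share reads. Groups came from the labels. The 10 members and the other lists were chosen with earlier results of these data known.

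Counts were fitted with edgeR 4.0.16 in R 4.3.3 (TMM, quasi-likelihood test, no covariates), over the 12 libraries of a cell type or all 24, for the miRNAs that reached 10 counts in 3 or more libraries of the fit (404, 426 and 450). Called means a log2 fold change of 1 or more in size and an adjusted p (Benjamini-Hochberg) under 0.05, and for the interaction the adjusted p alone. The script was tested on simulated data. Named in the text are all members, the listed miRNAs and the 5 miRNAs most like miR-451a and miR-126a-3p. Alternatives were DESeq2 1.42.0, RLE scaling, library totals, other filters, a term for library numbers above 60, fits of only the 2 genotypes compared, calls by the adjusted p alone, the replicate block and leaving out each replicate. The limit for 0 counts is 3 counts, and intervals are 95% Wilson intervals. Library totals had group medians of 262790.5 to 641717 counts.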

Additional observations from a re-analysis of the deposited data

Results flagged for a closer look

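Dixon's test at the 95% level was run on CPM in the groups of 4 libraries. Of 54 sets of values of a marker in a group, 5 held a library far from the other 3. The rate of about 2.7 by chance holds for normally spread values, and CPM was tested without logs, so no excess can be read from it. All 5 flagged values were the highest of their group, and miR-451a and miR-486a-5p flag the same library. Replicate 2 of Ago413+/+ spermatocytes, at 10.97 CPM of miR-451a with the others at 629 to 2230.4 CPM, was not flagged. In Ago413-/- round spermatids, replicate 4 was at 4364 CPM for miR-451a (2024 counts), with the other 3 at 80.8 to 555 CPM, and at 440 CPM for miR-486a-5p (204 counts), with the others at 22.3 to 61.6 CPM. The same library had 934 counts of miR-122-5p. In Ago413+/- round spermatids, replicate 1 was at 1122 CPM for miR-126a-3p, with the others at 832 to 881 CPM, a small gap in a tight group. In spermatocytes, replicate 3 of Ago413+/+ was at 32.8 CPM for miR-223-3p (28 counts), with the others at 0 to 3.32 CPM, and replicate 4 of Ago413+/- was at 196 CPM for miR-150-5p (63 counts), with the others at 2.97 to 21.2 CPM. The last library also held the lowest miR-142a-3p share of both miR-142a arms, 4.81%. What sets these libraries apart was not tested.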

How the results depend on the processing

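Of the markers, 5 were called in Ago413-/- against Ago413+/+ round spermatids, and 3 with at least 10 counts in every library, 2 with only the 2 genotypes compared, 3 with the term for library numbers above 60 and 1 to 5 when a replicate was left out (1 without Ago413+/+ replicate 1, 2 without Ago413+/+ replicate 2 or Ago413-/- replicate 4, and 3 without Ago413+/+ replicate 4). The 1 call left without Ago413+/+ replicate 1 was mmu-miR-223-3p, which passed the filter through the groups in which it was high. The counts without Ago413+/+ replicates 2 and 4 include mmu-miR-223-3p too. The replicate block gave 3 there and 0 in place of 1 for round spermatids against spermatocytes in Ago413-/-, and the same counts in the other comparisons. Libraries were not treated as paired, since of 12 correlations between same-numbered libraries only 4 were over 0.1 in spermatocytes, 3 in round spermatids and 6 between cell types. Between cell types of a genotype the median correlation was 0.17 for the same number and -0.081 for other numbers, 10 of the 24 libraries correlated best with their own number, and 11 of the 12 pairs had consecutive library numbers, so a pairing there was not settled.

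Without a filter on low counts the count of markers called was 1 in place of 0 for Ago413+/- against Ago413+/+ spermatocytes, 2 in place of 0 for Ago413-/- against Ago413+/- spermatocytes, 2 in place of 0 for Ago413+/- against Ago413+/+ round spermatids, 5 in place of 2 for Ago413-/- against Ago413+/- round spermatids, 1 in place of 0 between cell types in Ago413+/+ and in Ago413+/-, 3 in place of 1 in Ago413-/-, and 2 in place of 0 for the interaction. In that fit mmu-miR-451a had an adjusted p of 1.11e-18 (edgeR) for Ago413-/- against Ago413+/+ round spermatids, and the cause was not tested. DESeq2 called 1 in place of 0 for Ago413-/- against Ago413+/- spermatocytes and 3 in place of 1 between cell types in Ago413-/-, and at least 10 counts in every library gave 1 in place of 2 for Ago413-/- against Ago413+/- round spermatids. Leaving out a replicate gave 0 to 1 for Ago413-/- against Ago413+/- spermatocytes, 2 to 3 for Ago413-/- against Ago413+/- round spermatids and 0 to 3 between cell types in Ago413-/-.

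Over alternatives other than leaving out a replicate, 601 of 645 log2 fold changes of markers kept their direction and their side of the threshold, 11 lost a call, 23 gained one and 10 changed sign. The sign changes were mmu-miR-126a-3p in Ago413-/- against Ago413+/+ spermatocytes (-0.10 with library totals, -0.034 without a filter, -0.11 with 10 counts in every library and -0.11 with the replicate block), mmu-miR-126a-5p in Ago413+/- against Ago413+/+ round spermatids (0.033 with the replicate block), mmu-miR-155-5p in Ago413-/- against Ago413+/- round spermatids (-0.13 with library totals and -0.051 without a filter), and, between cell types, mmu-miR-126a-5p in Ago413+/+ (-0.051 with library totals), mmu-miR-451a in Ago413-/- (-0.69 with the replicate block) and mmu-miR-486a-5p in Ago413-/- (-0.24 with the replicate block). None of these had been called.

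Leaving out a replicate changed 53 of 750 marker fold changes in call or sign, 30 of them in sign, none of which had been called. For Ago413-/- against Ago413+/+ spermatocytes the ranges were -0.80 to 0.41 (mmu-miR-126a-3p), -0.43 to 0.049 (mmu-miR-142a-5p), -0.42 to 1.23 (mmu-miR-451a) and -0.26 to 0.68 (mmu-miR-486a-5p). In round spermatids they were -0.40 to 0.26 for mmu-miR-126a-5p in Ago413+/- against Ago413+/+, and against Ago413+/- in Ago413-/- -0.71 to 0.17 (mmu-miR-142a-3p), -0.10 to 0.28 (mmu-miR-155-5p), -0.29 to 2.47 (mmu-miR-451a) and -0.026 to 1.89 (mmu-miR-486a-5p). Between cell types they were -0.13 to 0.53 (mmu-miR-126a-3p), -0.29 to 0.42 (mmu-miR-126a-5p), -0.0034 to 1.199 (mmu-miR-150-5p) and -3.02 to 0.29 (mmu-miR-223-3p) in Ago413+/+, -0.40 to 0.57 (mmu-miR-142a-3p) and -0.36 to 0.11 (mmu-miR-142a-5p) in Ago413+/-, and -1.68 to 1.03 (mmu-miR-451a) and -1.23 to 0.92 (mmu-miR-486a-5p) in Ago413-/-.

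Over all miRNAs, DESeq2 called 61 in place of 18 for Ago413-/- against Ago413+/+ spermatocytes, 57 in place of 9 against Ago413+/-, 6 in place of 0 for Ago413+/- against Ago413+/+ round spermatids and 49 in place of 22 between cell types in Ago413-/-. No filter gave 55, 40, 8 and 43 in the same comparisons, 8 in place of 0 for the interaction, and 4, 4 and 5 in place of 0 for Ago413+/- against Ago413+/+ spermatocytes and between cell types in Ago413+/+ and Ago413+/-. At least 10 counts in every library gave 42 in place of 69 for Ago413-/- against Ago413+/+ round spermatids and 35 in place of 53 against Ago413+/-, where the adjusted p alone gave 81, and only the 2 genotypes compared gave 4 in place of 9 for Ago413-/- against Ago413+/- spermatocytes. Leaving out a replicate gave 5 to 57 there, 11 to 19 against Ago413+/+, 31 to 65 for Ago413-/- against Ago413+/- round spermatids, 0 to 2 for Ago413+/- against Ago413+/+ round spermatids and 1 to 62 between cell types in Ago413-/-. Depth limits miR-144-3p and miR-223-3p most, with at most 5 and 28 counts in a library.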
